A study of Homo sapiens with 24 samples.

Results

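The genes described here are a fixed list of 10 antioxidant genes: targets of the transcription factor NRF2 and the cytosolic peroxiredoxins. They are defined by their symbols. The list holds NQO1, HMOX1, GCLC, GCLM, SRXN1, TXNRD1, GSTP1, PRDX1, PRDX2 and SLC7A11. Of the 10 listed genes, 9 were matched to an entry among the 51715 gene identifiers of the count files, and all 9 passed the filter on low counts in every comparison. SRXN1, which encodes sulfiredoxin, was not analysed here. RNA was sequenced from A-431 (an epidermoid carcinoma line), U-251MG (a glioblastoma line) and U-2 OS (an osteosarcoma line), all harvested in log phase. For each of the 3 cell lines the labels give 4 libraries per fraction (total and cytoplasmic RNA), all selected for poly(A), which makes 24 libraries in 6 groups. A cell line is a culture of tumour cells, so the values describe these lines and not the tissues they came from. Expression is given as CPM, the reads counted in the exons of a gene relative to those counted in all genes, scaled by the trimmed mean of M-values (TMM). In bulk RNA of this kind, fewer cells that express a gene and less RNA per cell cannot be told apart.

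NRF2, encoded by NFE2L2, is held at a low level by KEAP1, which brings it to a CUL3 ubiquitin ligase for degradation. Electrophiles and oxidants modify cysteines of KEAP1, NRF2 then accumulates in the nucleus, pairs with a small MAF protein and binds antioxidant response elements near its target genes. The targets serve cystine import and glutathione synthesis, the thioredoxin system, and the detoxification of quinones, haem and electrophiles. Peroxiredoxins reduce hydrogen peroxide through a reactive cysteine, and thioredoxin with its reductase returns them to the reduced form.

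The sum of gene counts per library ranged from 19918911 to 32394170, and the 9 genes had 192 counts (HMOX1 in an A-431 total library) to 25183 counts (TXNRD1 in a U-251MG cytoplasmic library). Counting error was therefore small for every member except HMOX1. Libraries are named here by the numbers 1 to 24 in their titles. Cytoplasmic library 13 of U-2 OS matched no entry of the study's read summary and had 18.6% of its reads outside annotated exons, against 12.2% to 15.4% in the 23 libraries used. It was left out of the main comparisons and its values are given apart. Markers fitted the labelled lines in part. EGFR averaged 16426 CPM in A-431 total RNA, FABP7 67.1 CPM in U-251MG total RNA and COL1A1 1198 CPM in U-2 OS total RNA, each the highest of the 3 lines. KRT14 was near 0 in A-431 (0.108 CPM), GFAP was low in U-251MG (2.63 CPM) and SP7 was near 0 in U-2 OS (0.0426 CPM). Some listed markers were highest in another line than their own. KRT17 had 447 CPM and KRT14 9.70 CPM in U-2 OS, above A-431 (111 and 0.108 CPM), NES had 168 CPM in U-2 OS against 49.4 CPM in U-251MG, and RUNX2 and SPARC had 62.0 and 2187 CPM in U-251MG against 33.8 and 1508 CPM in U-2 OS. Of the blood cell markers, CD3E and HBB were near 0 in all groups and PTPRC averaged at most 0.928 CPM. All total RNA libraries ran on flow cell A, whereas the cytoplasmic libraries used ran on flow cell B except for libraries 14 (U-2 OS), 19 and 20 (both U-251MG). The flow cell of library 13 is not known. The p-values measure the spread between these cultures. In comparisons between lines, the 3 lines of a fraction shared a single estimate of each gene's spread, so the third line also enters it. For fraction ratios compared between lines, all 6 groups shared it.

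Sequences of the antioxidant response element type are shown first, because the element is the feature through which NRF2 recognises its targets. The motif TGACNNNGC was searched on both strands of RefSeq promoter windows (GRCh38.p14) of 300 bases, which run from 250 bases before to 50 bases after each gene's start. It was present in 4687 of 35116 promoters (13.3%). Of the listed genes, 7 had an entry, with 8 promoters in all, and 4 promoters of 3 genes held a match. GCLC, NQO1, PRDX2 and SRXN1 had no match in this window. HMOX1, PRDX1 and SLC7A11 had no entry. The 5 matches are printed 5′ to 3′ with the motif in capitals and its position relative to the start.
GCLM, chr1:93909446-93909474, plus strand (the gene lies on the minus strand), bases -34 to -26: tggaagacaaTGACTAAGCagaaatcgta
GSTP1, chr11:67583736-67583764, plus strand, bases -66 to -58: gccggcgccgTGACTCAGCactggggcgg
TXNRD1, chr12:104215670-104215698, plus strand, bases -99 to -91: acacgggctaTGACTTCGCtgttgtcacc
TXNRD1, chr12:104215761-104215789, minus strand, bases -8 to 1: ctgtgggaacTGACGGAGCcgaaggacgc
TXNRD1 (second promoter), chr12:104286920-104286948, minus strand, bases -102 to -94: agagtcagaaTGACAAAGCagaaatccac
The GSTP1 match also spells the AP-1 motif TGACTCA, which 1738 of 35116 promoters (4.95%) held, and none of the other 4 matches did. A match is a description of letters and was not tested for binding.

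**Figure D1:**
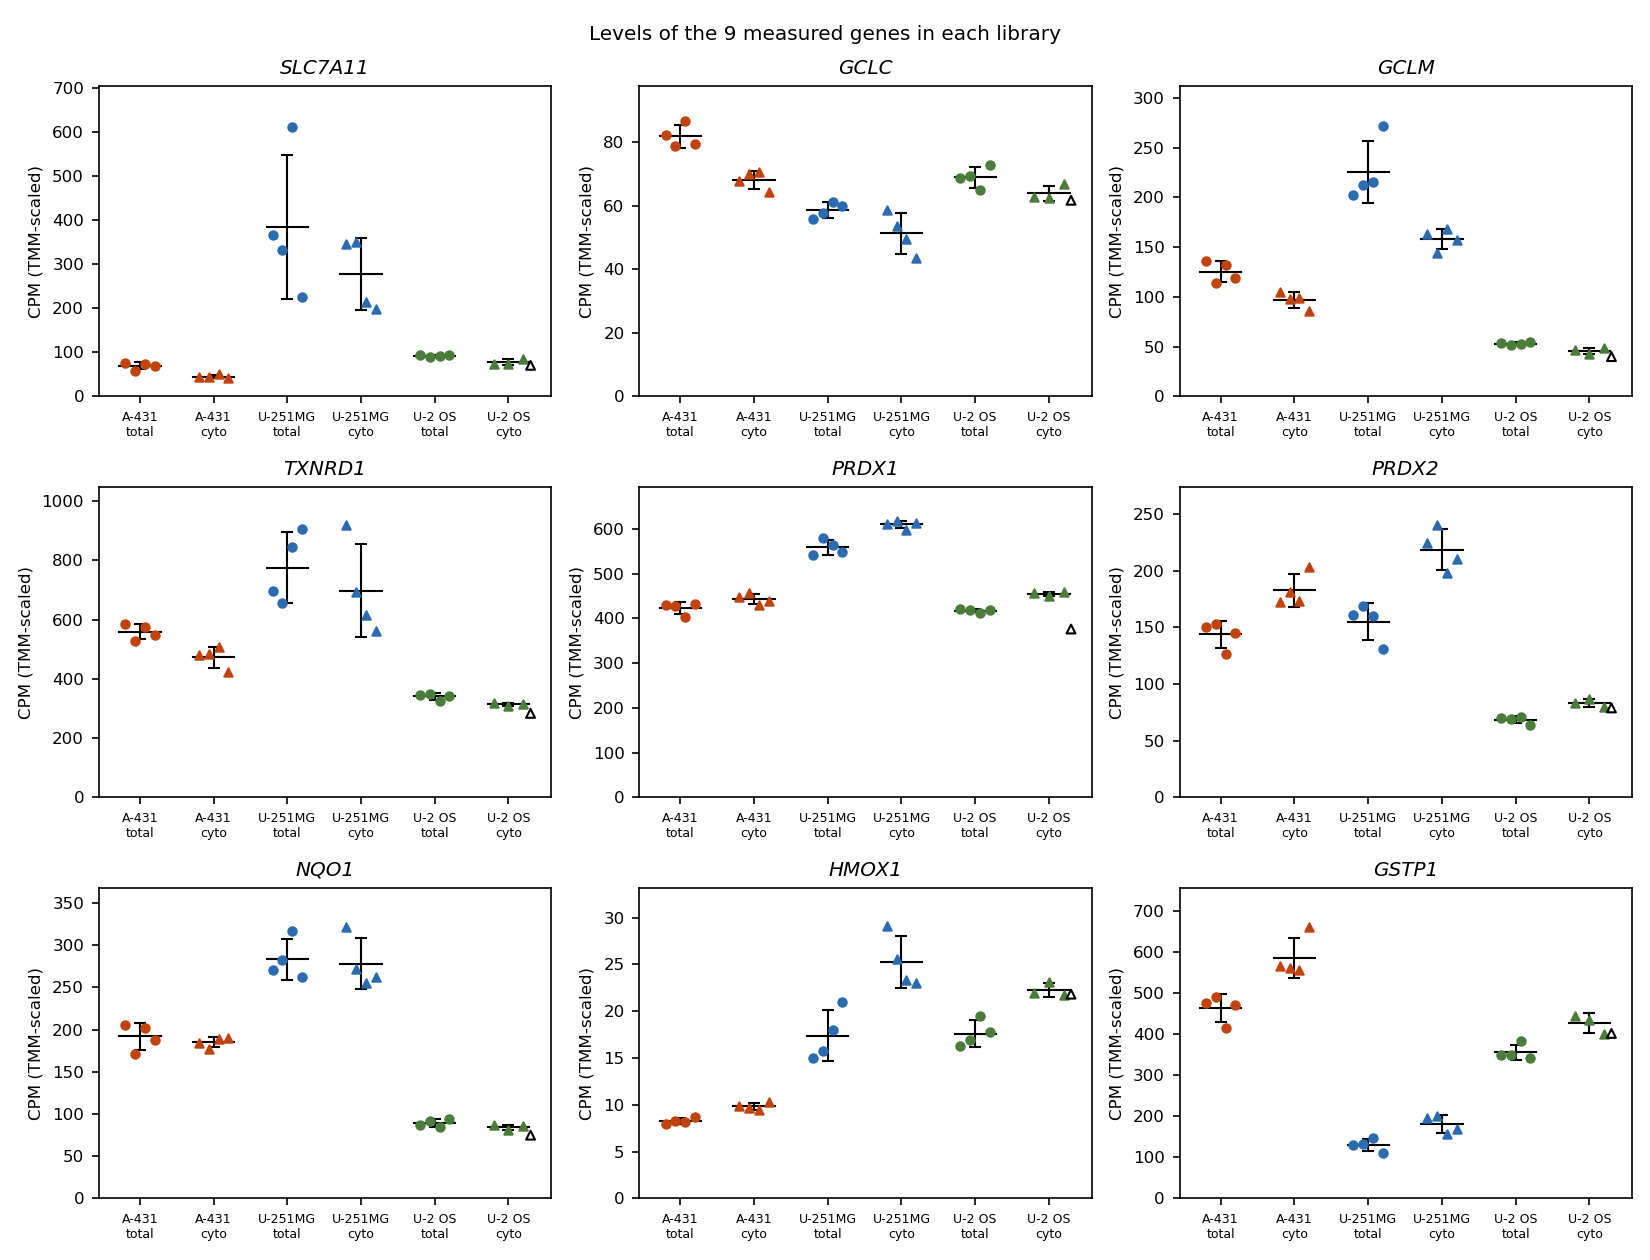
Levels of the 9 measured genes. Each panel gives CPM per library (linear axis from 0), circles for total RNA and triangles for cytoplasmic RNA, with bars at the mean ± SD of the libraries used; the open triangle is U-2 OS cytoplasmic library 13, which was left out. SLC7A11 in U-251MG total RNA spreads from 226 to 612 CPM, whereas PRDX1 stays between 403 and 432 CPM in A-431 total RNA.

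The genes of cystine import and glutathione synthesis differed most between the lines through SLC7A11 and GCLM, while GCLC varied little. SLC7A11 (ENSG00000151012, chromosome 4, 139085251 to 139163503, minus strand, GRCh37) encodes xCT, the light chain of the cystine/glutamate antiporter. In total RNA it had 75.9, 57.9, 74.0 and 69.8 CPM in A-431, against 367, 332, 612 and 226 CPM in U-251MG and 92.8, 88.2, 90.6 and 94.6 CPM in U-2 OS. Every U-251MG library lay above every library of the other lines, and the U-251MG libraries also spread most widely (384 ± 163 CPM, SD, n = 4). The log2 ratio was 2.02 ± 0.26 (SE) for U-251MG over U-2 OS (adjusted p = 4.58e-05) and -2.46 ± 0.27 for A-431 over U-251MG (adjusted p = 1.22e-05), both by the edgeR quasi-likelihood test with Benjamini-Hochberg adjustment over all genes, as for every adjusted p below. For A-431 over U-2 OS it was -0.45 ± 0.26 (adjusted p = 0.138), although the 4 libraries of A-431 all lay under those of U-2 OS. That SE also carries the wide spread of the U-251MG libraries, which were in the same fit.

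In cytoplasmic RNA, SLC7A11 had 43.2, 43.1, 50.4 and 41.5 CPM in A-431, against 346, 351, 215 and 199 CPM in U-251MG and 74.0, 72.5 and 85.6 CPM in U-2 OS. Libraries 17 and 18 of U-251MG, on flow cell B, were the higher pair and libraries 19 and 20, on flow cell A, the lower. Within flow cell B the difference of mean log2 CPM was -2.97 for A-431 over U-251MG and 2.14 for U-251MG over U-2 OS, so SLC7A11 was highest in U-251MG within 1 flow cell too.

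Glutamate-cysteine ligase, the rate-limiting enzyme of glutathione synthesis, is made of a catalytic subunit (GCLC, ENSG00000001084, chromosome 6, 53362139 to 53481768, minus strand) and a modifier subunit (GCLM, ENSG00000023909, chromosome 1, 94350755 to 94375012, minus strand). GCLM in total RNA had 136, 114, 132 and 119 CPM in A-431, against 202, 213, 216 and 272 CPM in U-251MG and 53.3, 51.7, 52.6 and 54.7 CPM in U-2 OS. No group overlapped another. GCLM was higher in U-251MG than in U-2 OS (log2 ratio 2.04 ± 0.08, adjusted p = 1.25e-17) and in A-431 than in U-2 OS (1.19 ± 0.08, adjusted p = 5.02e-13). GCLC in total RNA had 82.1, 78.9, 86.6 and 79.5 CPM in A-431, against 55.7, 57.6, 61.2 and 59.9 CPM in U-251MG and 68.6, 69.5, 64.9 and 72.8 CPM in U-2 OS. Its groups did not overlap either, but its order was another: GCLC was lowest in U-251MG, the line in which GCLM was highest. The log2 ratio of GCLC for U-251MG over U-2 OS was -0.28 ± 0.06 (adjusted p = 0.000226), and no comparison of GCLC reached a log2 ratio of 1 in size.

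The 2 subunits were therefore also compared within each library, where depth and scaling cancel. The ratio of GCLM to GCLC counts was 1.66, 1.45, 1.52 and 1.5 in A-431 total RNA, against 3.64, 3.7, 3.53 and 4.54 for U-251MG and 0.777, 0.744, 0.811 and 0.751 for U-2 OS. U-2 OS was the only line in which GCLC had the higher count, and the 3 lines did not overlap. The difference in mean log2 ratio was 2.31 for U-251MG over U-2 OS, -1.32 for A-431 over U-251MG and 0.99 for A-431 over U-2 OS. Each had an exact two-sided permutation p of 0.0286, the smallest that 4 against 4 libraries allow, and an adjusted p of 0.0593 over the 27 comparisons of 3 such ratios, so none passed 0.05 after adjustment. In cytoplasmic RNA the mean ratio was 1.42 in A-431, 3.12 for U-251MG and 0.717 for U-2 OS. With 3 libraries in U-2 OS the smallest possible exact p was 0.0571.

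**Figure D2:**
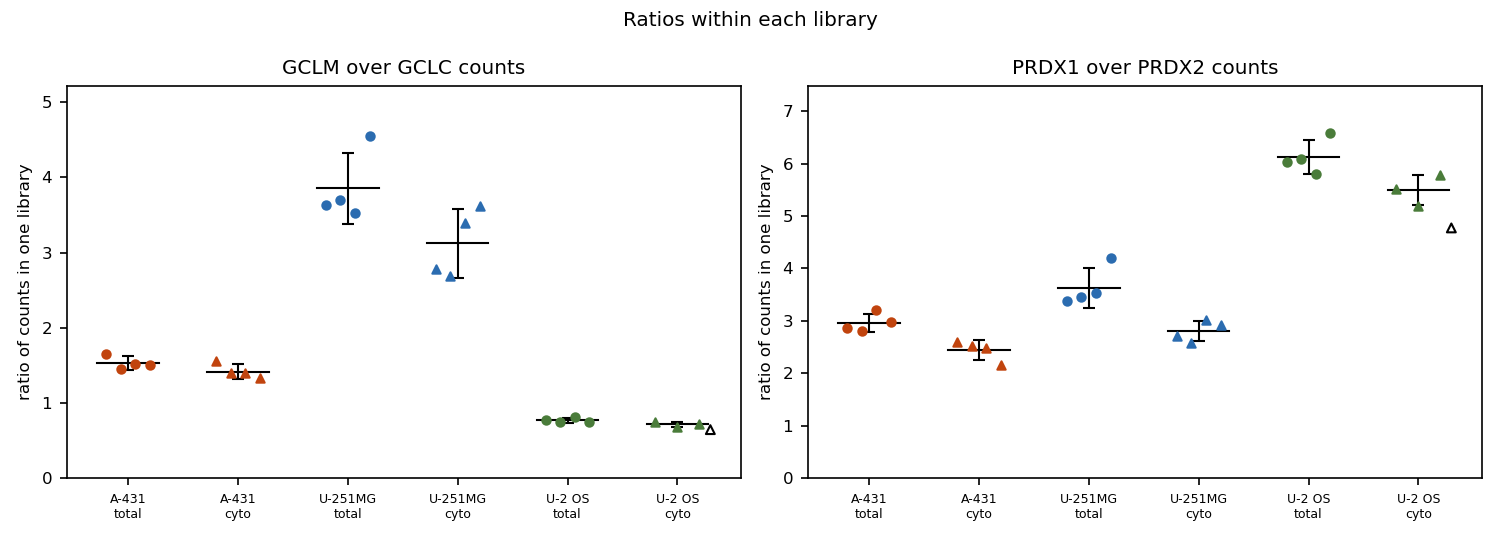
Ratios of counts within each library, for GCLM over GCLC and PRDX1 over PRDX2 (linear axes from 0; circles total RNA, triangles cytoplasmic RNA, bars mean ± SD, open triangle the left-out library 13). GCLM over GCLC separates the 3 lines, with U-251MG highest (mean 3.85 in total RNA) and U-2 OS lowest (0.771), and PRDX1 over PRDX2 is highest in U-2 OS (6.12).

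In the thioredoxin arm, TXNRD1 and PRDX2 were lowest in U-2 OS, and PRDX1 was the steadiest of the 9 genes. TXNRD1 (ENSG00000198431, chromosome 12, 104609557 to 104744085, plus strand) encodes the cytosolic thioredoxin reductase, a selenoprotein. In total RNA it had 584, 529, 575 and 546 CPM in A-431, against 696, 655, 846 and 904 CPM in U-251MG and 345, 350.4, 324 and 343 CPM in U-2 OS. The groups did not overlap. TXNRD1 was higher in U-251MG than in U-2 OS (log2 ratio 1.14 ± 0.08, adjusted p = 1.56e-12). For A-431 over U-2 OS its log2 ratio of 0.67 ± 0.08 (adjusted p = 2.55e-08) stayed under the fold minimum.

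PRDX2 (ENSG00000167815, chromosome 19, 12907634 to 12912614, minus strand), a cytosolic peroxiredoxin abundant in red cells, had 150.3, 153, 126 and 145 CPM in A-431 total RNA, against 161, 168, 160.1 and 131 CPM in U-251MG and 69.8, 68.7, 71.0 and 63.8 CPM in U-2 OS. A-431 and U-251MG overlapped, and both lay above U-2 OS in every library. The log2 ratio was 1.03 ± 0.08 for A-431 over U-2 OS (adjusted p = 4.27e-12) and 1.13 ± 0.08 for U-251MG over U-2 OS (adjusted p = 6.82e-13), against -0.11 ± 0.08 for A-431 over U-251MG (adjusted p = 0.198). PRDX1 (ENSG00000117450, chromosome 1, 45976586 to 46008404, minus strand), a cytosolic peroxiredoxin of the same typical 2-Cys class, had 429, 428, 403 and 432 CPM in A-431 total RNA, against 543, 581, 564 and 548 CPM in U-251MG and 421, 419, 411 and 419.5 CPM in U-2 OS. A-431 and U-2 OS overlapped (log2 ratio -0.03 ± 0.05, adjusted p = 0.656), and U-251MG lay above both (0.37 ± 0.05 over U-2 OS, adjusted p = 7.74e-07), by less than the fold minimum.

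The ratio of PRDX1 to PRDX2 counts within a library was 2.86, 2.8, 3.2 and 2.97 in A-431 total RNA, against 3.37, 3.45, 3.52 and 4.2 for U-251MG and 6.03, 6.09, 5.79 and 6.58 for U-2 OS. In total RNA the lines did not overlap, and PRDX2 made up the smallest part of the pair in U-2 OS (exact permutation p = 0.0286 for each pair of lines, adjusted p = 0.0593). The ratio in cytoplasmic RNA ranged from 2.16 to 2.59 in A-431, 2.57 to 3.02 for U-251MG and 5.2 to 5.78 for U-2 OS, so that A-431 and U-251MG overlapped (exact permutation p = 0.0571, adjusted p = 0.0671) and U-2 OS stayed apart from both. Processed copies of both genes carry reads of their own: the count of PRDX1P1 was 11.5% of that of PRDX1, and those of PRDX2P1 and PRDX2P4 were 6.93% and 5.48% of that of PRDX2. Adding the copies to their parent genes, an alternative chosen after seeing the data, changed no call. Because counting ignored strand, reads of overlapping antisense exons are also counted or dropped with PRDX1 (501 bases shared with MMACHC), SLC7A11 (865 bases shared with SLC7A11-AS1) and GCLC (305 bases shared with GCLC-AS1).

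The detoxification enzymes had no common order of the lines. NQO1 (ENSG00000181019, chromosome 16, 69740899 to 69760571, minus strand), a quinone reductase and a standard readout of NRF2, had 206, 171, 202 and 188 CPM in A-431 total RNA, against 271, 282, 317 and 263 CPM in U-251MG and 87.3, 91.9, 84.5 and 93.9 CPM in U-2 OS. No groups overlapped, and U-2 OS was the lowest. The log2 ratio was 1.61 ± 0.07 for U-251MG over U-2 OS (adjusted p = 8.07e-17) and 1.06 ± 0.07 for A-431 over U-2 OS (adjusted p = 3.64e-13).

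HMOX1 (ENSG00000100292, chromosome 22, 35776354 to 35790207, plus strand), the inducible haem oxygenase, had 7.93, 8.28, 8.11 and 8.64 CPM in A-431 total RNA, against 14.96, 15.7, 17.9 and 20.99 CPM in U-251MG and 16.2, 16.9, 19.5 and 17.8 CPM in U-2 OS. It was lower in A-431 than in either other line (log2 ratio -1.08 ± 0.11 over U-251MG, adjusted p = 1.44e-09, and -1.14 ± 0.11 over U-2 OS, adjusted p = 3.71e-10), and U-251MG and U-2 OS overlapped. GSTP1 (ENSG00000084207, chromosome 11, 67351213 to 67354127, plus strand), a glutathione S-transferase that conjugates electrophiles, had 476, 490.3, 413 and 471 CPM in A-431 total RNA, against 129.8, 132, 147 and 109.6 CPM in U-251MG and 349, 349, 382 and 340.2 CPM in U-2 OS. It was lowest in U-251MG, in every library, with log2 ratios of 1.84 ± 0.08 for A-431 over U-251MG (adjusted p = 2.69e-17) and -1.50 ± 0.08 for U-251MG over U-2 OS (adjusted p = 1.87e-15).

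Taking CPM per kilobase of the canonical transcript, so that genes can be set beside each other, GSTP1 was the most abundant of the 9 in A-431 total RNA (624) and U-2 OS (479), and PRDX1 in U-251MG (592). In A-431 the order below GSTP1 was PRDX1 (448), PRDX2 (155), TXNRD1 (145), NQO1 (76.1), GCLM (25.7), GCLC (21.6), SLC7A11 (7.19) and HMOX1 (5.30), in which PRDX2 and TXNRD1 differed by less than the SD of PRDX2 (13.1). In U-251MG it was TXNRD1 (201 ± 30.7, SD), GSTP1 (175 ± 20.95) and PRDX2 (168 ± 18.1) below PRDX1, and these 3 did not differ beyond their spread. NQO1 (112), GCLM (46.2), SLC7A11 (39.8 ± 16.9), GCLC (15.5) and HMOX1 (11.2) followed, with GCLM and SLC7A11 within the SD of SLC7A11. In U-2 OS the order was GSTP1, PRDX1 (442), TXNRD1 (88.2), PRDX2 (73.9), NQO1 (35.5), GCLC (18.2), HMOX1 (11.3), GCLM (10.9) and SLC7A11 (9.49), in which HMOX1 and GCLM differed by less than the SD of HMOX1.

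A member was called between lines at an adjusted p under 0.001 with a log2 ratio of at least 1 in size. In total RNA, A-431 over U-2 OS, 3 of 9 members (NQO1, GCLM and PRDX2) were called higher and 1 (HMOX1) lower, beside 16.4% and 22.4% of the 18610 genes tested. For A-431 over U-251MG, 1 (GSTP1) was called higher and 2 (HMOX1 and SLC7A11) lower, beside 16.4% and 14.6% of all genes. For U-251MG over U-2 OS, 5 (NQO1, GCLM, TXNRD1, PRDX2 and SLC7A11) were called higher and 1 (GSTP1) lower, beside 13.6% and 22.1% of all genes. The median log2 ratio of the 9 members was 0.34, -0.47 and 1.13 in these comparisons, beside -0.07, 0 and -0.09 over all genes tested. The first and last comparisons share the U-2 OS libraries.

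Some of these calls lay close to the fold minimum. Without A-431 library 9, NQO1 for A-431 over U-2 OS had a log2 ratio of 0.998 and PRDX2 one of 0.98, and neither was called, which left 2 members. PRDX2 was also not called without U-2 OS library 4 (0.99), A-431 library 10 or A-431 library 12. No member called in total RNA in the other pairs of lines lost its call when any 1 of the 8 libraries was left out.

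In cytoplasmic RNA the same members were called in the same directions in all 3 pairs of lines. For A-431 over U-2 OS the log2 ratios were 1.11 for NQO1, 1.054 for GCLM, 1.12 for PRDX2 and -1.20 for HMOX1 (3 of 9 higher and 1 lower, beside 17.3% and 21.7% of 19344 genes). For A-431 over U-251MG they were 1.68 for GSTP1, -1.38 for HMOX1 and -2.65 for SLC7A11 (1 higher and 2 lower, beside 16.8% and 15.1%). For U-251MG over U-2 OS they were 1.71 for NQO1, 1.78 for GCLM, 1.14 for TXNRD1, 1.39 for PRDX2, 1.84 for SLC7A11 and -1.25 for GSTP1 (5 higher and 1 lower, beside 13.9% and 21.1%). GCLM for A-431 over U-2 OS lost its call without A-431 library 21 (0.97), as did TXNRD1 for U-251MG over U-2 OS without U-251MG library 17 (0.98). In U-251MG cytoplasmic RNA, TXNRD1 had 920.3 and 692 CPM in the libraries of flow cell B, against 615 and 563 CPM in those of flow cell A. Within flow cells its difference in mean log2 CPM for U-251MG over U-2 OS was 1.35 on B and 0.88 on A.

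**Figure D3:**
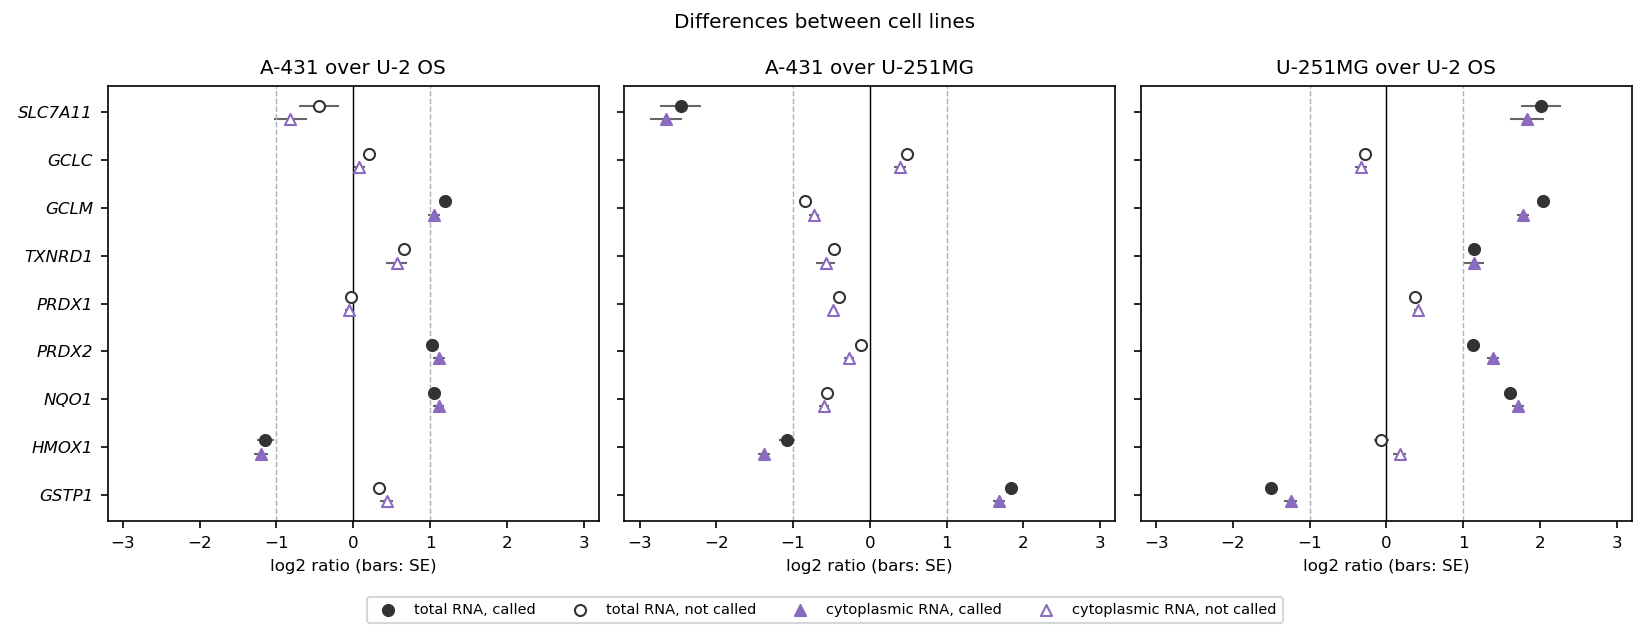
Log2 ratios between cell lines for the 9 genes (x axis; bars SE; circles total RNA, triangles cytoplasmic RNA; filled symbols were called, dashed lines mark a log2 ratio of 1 in size). NQO1, GCLM and PRDX2 lie right of 1 in both panels over U-2 OS, GSTP1 lies at 1.84 for A-431 over U-251MG in total RNA, and SLC7A11 has the widest bars.

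The transcripts of NRF2 itself and of its ligase differed little. NFE2L2 had 104 ± 5.51 CPM in A-431 total RNA, 106 ± 11.6 for U-251MG and 99.8 ± 1.21 for U-2 OS (SD, n = 4 each), with log2 ratios of 0.01 for A-431 over U-2 OS, -0.02 for A-431 over U-251MG and 0.03 for U-251MG over U-2 OS (adjusted p = 0.880, 0.784 and 0.652). KEAP1, the substrate adaptor, had 77.0 ± 9.59, 71.0 ± 5.91 and 57.2 ± 4.11 CPM in the same order of lines, and its log2 ratio was 0.38 for A-431 over U-2 OS (adjusted p = 0.000178), under the fold minimum. CUL3, the scaffold of the ligase, had 157, 160.4 and 161 CPM. RNA levels do not report NRF2 protein, which was not measured here.

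SQSTM1 and BACH1 were among the other regulators that differed between lines. SQSTM1 encodes p62, an autophagy receptor that binds KEAP1 and is itself an NRF2 target. It ranged from 65.6 to 72.0 CPM in A-431 total RNA, from 244 to 319.9 CPM in U-251MG and from 73.4 to 91.2 CPM in U-2 OS, so that every U-251MG library lay above all others (log2 ratio 1.68 for U-251MG over U-2 OS and -2.005 for A-431 over U-251MG, adjusted p = 2.00e-16 and 4.69e-18). Of the 15 regulators tested in total RNA, 1 was called higher and 1 lower for A-431 over U-2 OS, 4 and 2 for A-431 over U-251MG, and 2 and 3 for U-251MG over U-2 OS, beside 16.4% and 22.4%, 16.4% and 14.6%, and 13.6% and 22.1% of all genes. BACH1, a repressor that competes with NRF2 at HMOX1 and other targets, was called in the last 2 of these pairs, with 100.6 CPM for A-431, 44.4 for U-251MG and 129 for U-2 OS. GSK3B, a kinase that marks NRF2 for degradation, was called for A-431 over U-251MG (1.13). NFE2L1, a relative of NRF2, had a log2 ratio of -0.97 for A-431 over U-251MG in total RNA and was not called. In cytoplasmic RNA it was called lower for that pair. In cytoplasmic RNA 2 regulators were called higher and 1 lower for A-431 over U-2 OS, 3 and 3 for A-431 over U-251MG, and 2 and 4 for U-251MG over U-2 OS.

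**Figure D4:**
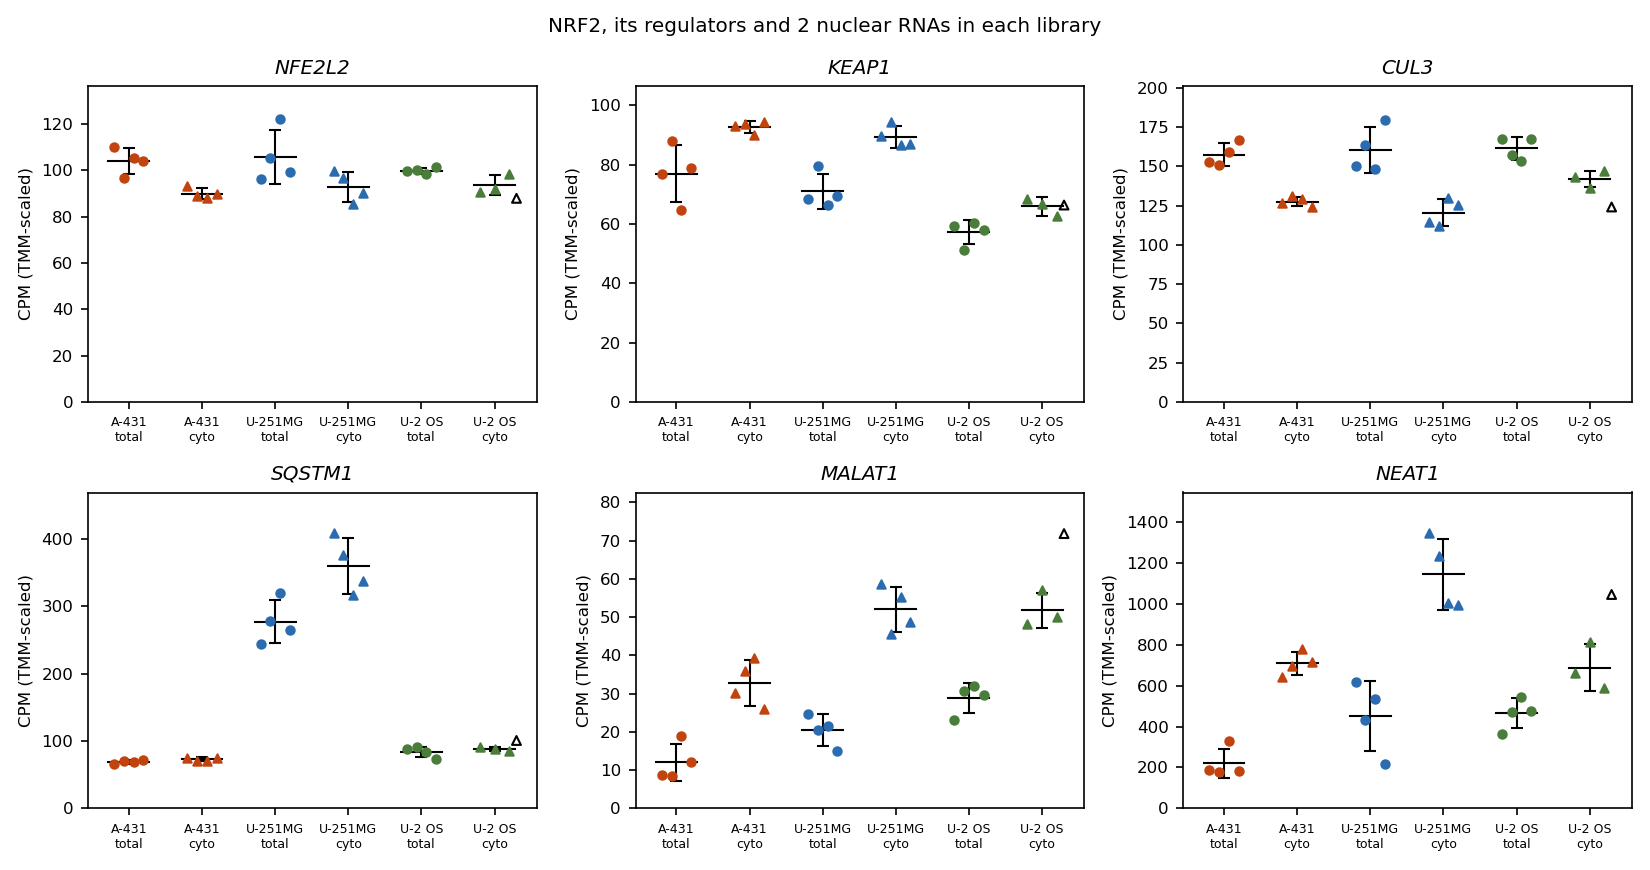
CPM per library (linear axes from 0; circles total RNA, triangles cytoplasmic RNA, bars mean ± SD, open triangle the left-out library 13) of NFE2L2, KEAP1, CUL3 and SQSTM1, and of the nuclear RNAs MALAT1 and NEAT1. NFE2L2 averages 104, 106 and 99.8 CPM in total RNA of A-431, U-251MG and U-2 OS, SQSTM1 is highest in U-251MG, and both nuclear RNAs have higher means in the libraries labelled cytoplasmic.

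The wider pathway was read from 4 further lists, whose counts in total RNA stand beside 16.4% higher and 22.4% lower of all genes for A-431 over U-2 OS, 16.4% and 14.6% for A-431 over U-251MG, and 13.6% and 22.1% for U-251MG over U-2 OS. The shares of all genes in cytoplasmic RNA were 17.3% and 21.7%, 16.8% and 15.1%, and 13.9% and 21.1%. Of 31 other NRF2 targets tested in total RNA, 9 were called higher and 3 lower for A-431 over U-2 OS (median log2 ratio 0.37), 4 and 9 for A-431 over U-251MG (-0.15), and 11 and 4 for U-251MG over U-2 OS (0.51), beside medians of -0.07, 0 and -0.09 over all genes. TKT, a pentose phosphate enzyme, had log2 ratios of 1.12, -1.03 and 2.15 in these comparisons, all called. FTL, the ferritin light chain, had -1.47, -2.52 and 1.054, also all called, and TXN (thioredoxin) was called over U-2 OS for both A-431 (1.19) and U-251MG (1.68). FTH1, the ferritin heavy chain, was not called in any pair (log2 ratios of 0.77, 0.79 and -0.03). In cytoplasmic RNA the counts were 8 higher and 3 lower, 5 and 10, and 15 and 4.

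Of 19 genes of the thioredoxin and peroxiredoxin system outside the list, 6 were called higher and 6 lower for A-431 over U-2 OS in total RNA, 1 and 3 for A-431 over U-251MG, and 5 and 5 for U-251MG over U-2 OS. PRDX6, a 1-Cys peroxiredoxin, averaged 520.3 CPM in A-431, 261 CPM in U-251MG and 175 CPM in U-2 OS (log2 ratio 1.52 for A-431 over U-2 OS, called). PRDX3, a mitochondrial peroxiredoxin, was called in the same pair (1.08), and PRDX5 was lower in U-251MG than in U-2 OS (-1.15). The peroxiredoxins thus did not share one order of the lines. In cytoplasmic RNA the counts were 5 and 6, 1 and 4, and 5 and 5.

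Of 26 glutathione enzymes, 4 were called higher and 11 lower for A-431 over U-2 OS in total RNA (where all genes had 16.4% and 22.4%), 3 and 7 for A-431 over U-251MG, and 2 and 7 for U-251MG over U-2 OS. The 4 most abundant, GPX1 and GPX4 (glutathione peroxidases), SLC3A2 (the heavy chain that carries xCT to the membrane) and GLO1 (glyoxalase), were not called in any pair in total RNA. SLC3A2 had log2 ratios of 0.67, -0.24 and 0.91 with SEs of 0.27, 0.26 and 0.27. In cytoplasmic RNA the counts were 3 and 11, 4 and 7, and 6 and 7. Of 7 superoxide and peroxide enzymes, 3 were called higher and 1 lower, 4 and 1, and 1 and 0 in total RNA, and 4 and 1, 4 and 1, and 1 and 1 in cytoplasmic RNA. NQO2, a quinone reductase related to NQO1, was called in all 3 pairs of lines in total RNA (2.22, 1.01 and 1.22), HMOX2, the constitutive haem oxygenase, for A-431 over U-251MG (1.45), and SOD1 and CAT, which remove superoxide and hydrogen peroxide, in none.

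The fractions were compared next, in the order total over cytoplasmic RNA. MALAT1 and NEAT1, which are retained in the nucleus and serve as a check of the fractions, went against the labels. MALAT1 averaged 12.02 CPM in A-431 total RNA against 32.8 CPM in cytoplasmic RNA, 20.4 against 52.0 CPM in U-251MG and 28.8 against 51.7 CPM in U-2 OS (log2 ratios -1.42, -1.36 and -0.82, adjusted p = 0.00547 in A-431, with the other 2 called). NEAT1 averaged 221 against 709 CPM, 451 against 1147 CPM and 466 against 688 CPM (log2 ratios -1.68, -1.35 and -0.54, called in A-431, with adjusted p = 0.0128 and 0.0843 in the other 2 lines). By capillary electrophoresis, the study found a nucleus-specific peak in total RNA that was missing from cytoplasmic RNA, apart from a U-2 OS sample that was discarded, so that measure runs the labelled way. The fraction results below are given as differences between libraries as labelled. In A-431 every total library ran on flow cell A and every cytoplasmic library on flow cell B, so fraction and flow cell cannot be told apart in that line.

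Differences between fractions were small for all 9 genes, and no log2 ratio exceeded 0.65 in size. A member was called at an adjusted p under 0.001. In A-431, 3 of 9 (SLC7A11, GCLM and GCLC) were higher in total RNA, beside 10.2% of 16376 genes, and 2 (PRDX2 and GSTP1) were lower, beside 9.51%. In U-251MG, 1 (GCLM) was higher, beside 5.93% of 16128 genes, and 1 (PRDX2) lower, beside 6.98%. In U-2 OS, 1 (SLC7A11) was higher, beside 4.75% of 18049 genes, and 2 (GSTP1 and PRDX2) were lower, beside 3.61%. The medians of the 9 members were 0.06, 0.02 and 0.10, beside -0.01, 0.00 and 0.00 over all genes.

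SLC7A11 had the largest fraction difference among the 9 in A-431, with the total libraries given above all above the cytoplasmic ones (log2 ratio 0.65 ± 0.08, adjusted p = 1.21e-05). It was also called in U-2 OS (0.26 ± 0.06, adjusted p = 0.000575). In U-251MG its fractions overlapped (0.46 ± 0.36, adjusted p = 0.326). Within flow cell A, with 4 total and 2 cytoplasmic libraries of U-251MG, they did not overlap (difference in mean log2 CPM 0.80), though no member was called in that set. GCLM had 105, 97.8, 98.7 and 85.3 CPM in A-431 cytoplasmic RNA, 163, 144, 168 and 157 CPM in U-251MG and 46.6, 42.6 and 48.3 CPM in U-2 OS, below all total libraries of the same line. Its log2 ratio was 0.38 ± 0.07 in A-431 (adjusted p = 0.000332), 0.50 ± 0.09 for U-251MG (adjusted p = 0.000616) and 0.23 ± 0.06 for U-2 OS (adjusted p = 0.00317). GCLC had 67.6, 70.1, 70.5 and 64.3 CPM in A-431 cytoplasmic RNA (0.27 ± 0.06, adjusted p = 0.000831), and its fractions overlapped in both other lines. Within flow cell A those of U-251MG did not overlap for GCLC (difference in mean log2 CPM 0.34).

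PRDX2 was the only one of the 9 called in all 3 lines. It had 173, 181, 173 and 203 CPM in A-431 cytoplasmic RNA, 225, 240.0, 198 and 210.2 CPM in U-251MG and 82.8, 86.6 and 79.3 CPM in U-2 OS, above all total libraries of the same line. Its log2 ratio was -0.34 ± 0.07 in A-431 (adjusted p = 0.000439), -0.50 ± 0.09 for U-251MG (adjusted p = 0.000696) and -0.26 ± 0.06 for U-2 OS (adjusted p = 0.000519). GSTP1 had 566, 561, 555 and 659 CPM in A-431 cytoplasmic RNA, 196, 200.04, 156 and 169.8 CPM in U-251MG and 444, 435 and 399 CPM in U-2 OS, also above all total libraries of the same line. It was called in A-431 (-0.33 ± 0.06, adjusted p = 0.000444) and in U-2 OS (-0.24 ± 0.05, adjusted p = 0.000591), and had -0.48 ± 0.10 in U-251MG (adjusted p = 0.00222).

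HMOX1 had 9.9, 9.66, 9.4 and 10.3 CPM in A-431 cytoplasmic RNA, 29.1, 25.6, 23.3 and 23.02 CPM for U-251MG and 21.99, 23.1 and 21.7 CPM in U-2 OS. The fractions did not overlap in any line, with log2 ratios of -0.25, -0.54 and -0.32, but the adjusted p of 0.0192, 0.00183 and 0.00221 missed the threshold. NQO1 and PRDX1 lay closest to 0, between 0.02 and 0.10 for NQO1 and between -0.13 and -0.06 for PRDX1, and TXNRD1 had 0.24, 0.14 and 0.13 (adjusted p = 0.00373, 0.477 and 0.0388). Within flow cell A the U-251MG fractions did not overlap for TXNRD1 (difference in mean log2 CPM 0.39), nor for any other member except NQO1 (0.13). The share of all genes without overlap there is not given, and the fit on flow cell A alone called no member.

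The fraction ratios of the 9 genes separated at the extremes of transcript GC content, though not in strict order. The 2 transcripts of lowest GC content, SLC7A11 (35.4%) and GCLM (37.3%), had the highest ratios in each line, and the 3 of highest GC content, HMOX1 (57.7%), PRDX2 (58.2%) and GSTP1 (60.1%), the lowest. SLC7A11 (9645 bases) and GCLM (4883) were also the longest canonical transcripts of the 9. HMOX1 (1554), PRDX2 (925) and GSTP1 (741) were among the shortest, as was PRDX1 (945). Transcript length was not tested, and at these extremes it cannot be told apart from GC content. With an offset for GC content fitted over genes above a minimum level, 1 call was left of 10: SLC7A11 in A-431 (log2 ratio 0.31, adjusted p = 0.000738). Such an offset takes out any difference between fractions that follows GC content, whatever its source, and the source was not tested. Under the offset no member was called in U-251MG or U-2 OS, where 2 and 3 members had an unadjusted p under 0.05, and DESeq2 without the offset called 4 and 3 there. The share of all genes at these settings is not given. PRDX1 (46.2%) then had -0.15, -0.22 and -0.14 in A-431, U-251MG and U-2 OS (adjusted p = 0.00466, 0.00991 and 0.00934), further from 0 than without the offset but not called. The calls also depended on single libraries: in A-431, GCLC kept its call only without library 10, GCLM lost its call without library 9 or 22, GSTP1 without 9, 11 or 12, and PRDX2 without 9, 11, 12 or 22, whereas SLC7A11 was called in all 8 sets. In U-251MG both calls were lost without library 5, 6, 7, 17, 18 or 20. In U-2 OS all 3 calls were lost without library 1, 2, 4, 14 or 15. The model over all groups called SLC7A11 neither in A-431 (adjusted p = 0.0456) nor in U-2 OS (adjusted p = 0.549).

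**Figure D5:**
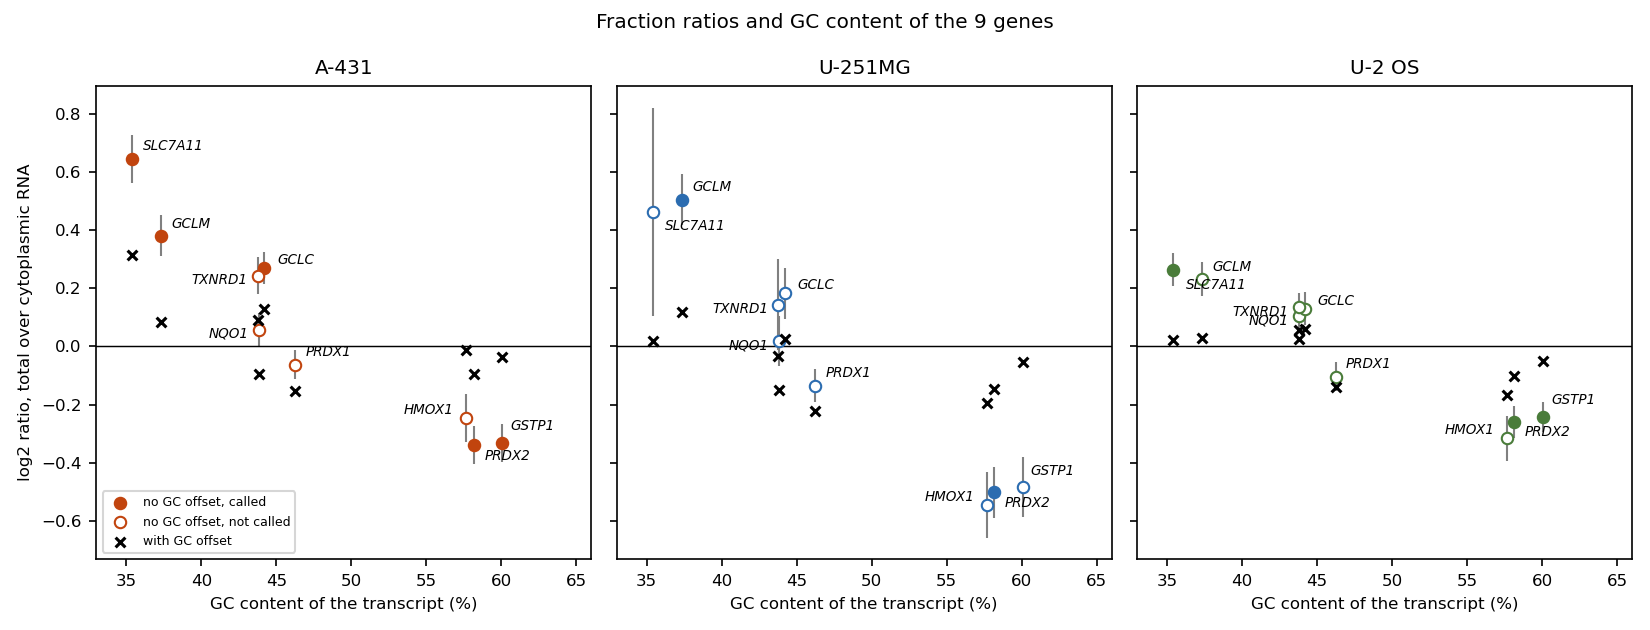
Log2 ratio of total over cytoplasmic RNA (y axis, bars SE) against the GC content of the canonical transcript (x axis, %) for the 9 genes, 1 panel per line; filled circles were called, open circles were not, and crosses give the ratio with a GC offset. SLC7A11 (35.4% GC) has a ratio of 0.65 in A-431 and 0.31 with the offset, and GSTP1 (60.1% GC) has -0.33 and -0.04.

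In the fractions, the list counts stand beside 10.2% higher and 9.51% lower of all genes for A-431, 5.93% and 6.98% for U-251MG, and 4.75% and 3.61% for U-2 OS. Of 29 other NRF2 targets, 1 was higher and 2 lower in total RNA of A-431, 1 and 0 for U-251MG and 0 and 3 for U-2 OS. Of the 15 regulators, 3 and 2, 2 and 0, and 1 and 1 were called, CUL3 among the higher in A-431 and U-251MG. Of the thioredoxin and peroxiredoxin system, 0 and 0 of 18, 2 and 1 of 19, and 0 and 1 of 19 were called. Of the glutathione enzymes, the counts were 2 and 2 of 21, 0 and 4 of 23, and 1 and 3 of 25, and of the superoxide and peroxide enzymes 0 and 1 of 6, 0 and 0 of 5, and 0 and 0 of 6.

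Whether a fraction ratio differed between lines was tested as an interaction over all 23 libraries, at an adjusted p under 0.05. No member was called in any of the 3 pairs, beside 2.12% of 19948 genes for A-431 against U-2 OS, 0.16% for A-431 against U-251MG and 1.67% for U-251MG against U-2 OS. At an unadjusted p under 0.05 the count was 0, 0 and 1 of 9 with edgeR, and DESeq2 called 0 in each pair. No share of all genes is given for these counts, so they do not set the members apart from other genes. The 1 member at an unadjusted p under 0.05 was GCLM, whose ratio in U-251MG exceeded that in U-2 OS by 0.30 ± 0.12 on the log2 scale (adjusted p = 0.156). SLC7A11 had differences of 0.37 ± 0.35, 0.15 ± 0.33 and 0.22 ± 0.34 in the model over all groups (adjusted p = 0.695, 0.967 and 0.769). The separate fits within lines had given 0.65 ± 0.08 in A-431 and 0.26 ± 0.06 in U-2 OS for it, and the interaction was tested only in the model that shares its spread across the 6 groups.

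Genes with the profile most like each member were named by the root mean square (RMS) difference of mean-centred log2 CPM over the 23 libraries, among 8473 genes (8474 for GSTP1) whose log2 CPM averaged 3 or more. The nearest to NQO1 was TXN (RMS 0.115, where NQO1 itself varied by 0.69), followed by PRSS12 (0.124). The nearest were TMEM209 (0.101) and TPMT (0.131) for GCLM, XPOT (0.133) and ARIH1 (0.136) for TXNRD1, and KCTD12 (0.304) and BCAT1 (0.314) for SLC7A11, which itself varied by 1.14. For GCLC they were FBXO11 (0.0825) and GABARAPL2 (0.0915), for HMOX1 TLN1 (0.168) and NUMBL (0.170), and for GSTP1 MAST3 (0.0961) and TST (0.106). For PRDX1 they were SLC35B1 (0.0717) and GOLGA3 (0.0752), and for PRDX2 PPP6R1 (0.101) and BABAM1 (0.102). None of the 9 members was among the 2 nearest genes of another.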

How the data were processed

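Poly(A) RNA of A-431, U-251MG and U-2 OS was sequenced as total and cytoplasmic RNA. The labels name Trizol and paired-end reads, but the study's methods give RNeasy columns, single reads and, for cytoplasmic RNA, lysis that spares the nuclei. According to the submitters' processing notes, TopHat 1.1.4, SAMtools 0.1.8 and HTSeq 0.4.6 were used with the hg19 build. The authors deposited whole-number counts per Ensembl gene; entries naming no gene held 25.9% to 33.6% of the reads and were left out. The authors also deposited RPKM values, whose sums per library were at least 3280033. They were used only beside the order of the members and in an alternative (limma 3.58.1, log2 of RPKM plus 1 or plus 0.1, mean RPKM of at least 1).

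Counts were tested with edgeR 4.0.16 in R 4.3.3 (TMM, filterByExpr, robust quasi-likelihood F-test; p-values adjusted by Benjamini-Hochberg over all genes tested): the fractions within each line, the lines within each fraction, and the difference of fraction ratios over all 23 libraries used. The test was checked on simulated data. Log2 CPM used a prior count of 2. Of the 24 libraries, 23 were tied to the study's read summary, 22 of them by all 4 values compared. The 3 ratios within a library were tested by exact two-sided permutation. Gene lengths, GC content and coordinates are from GENCODE v44lift37 (GRCh37). The members, the lists (NRF2 regulators, other NRF2 targets, the thioredoxin and peroxiredoxin system, glutathione enzymes, superoxide and peroxide enzymes) and the tests were chosen with earlier results of these data known. Named were all members, NFE2L2, KEAP1, MALAT1, NEAT1, up to 4 tested genes per list with the highest mean level, and the 2 genes most like each member; BACH1, ME1 and MGST1 were named after their values were seen. A gene that this rule also names is not reported here. Alternatives were RLE scaling, DESeq2 1.42.0, no filter on low counts, other thresholds, a GC offset, libraries of flow cell A, all labelled libraries, one model over all groups, a replicate block, limma on RPKM, pseudogene copies summed in, and each library left out in turn.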

Additional observations from a re-analysis of the deposited data

Results flagged for a closer look

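In A-431 cytoplasmic RNA, GSTP1 had 659 CPM in library 24, apart from the other 3 libraries (555 to 566 CPM): its gap to the nearest of them made up 0.897 of the group's range; Dixon's 95% critical value for 4 libraries was passed. In A-431 total RNA, PRDX1 had 403 CPM in library 11, apart from 428 to 432 CPM in the other 3 (0.867 of the range). These were 2 of 45 groups of 4 libraries examined, and chance flags about 1 in 20.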

How the results depend on the processing

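The calls between lines changed little with the processing, except with limma on RPKM and for A-431 over U-2 OS. The calls between fractions changed with most choices. The cause was not tested for any of these changes, except that a looser threshold passes more genes. For total over cytoplasmic RNA, 5 members were called in A-431, 2 for U-251MG and 3 for U-2 OS. At an adjusted p under 0.05 the count was 4 for U-251MG and 6 for U-2 OS. Without a filter on low counts it was 4 in U-251MG, as with DESeq2. One model over all groups called 3 in A-431, 4 for U-251MG and 0 for U-2 OS, where 5 had an unadjusted p under 0.05. The calls it lost in A-431 were SLC7A11 (edgeR adjusted p = 0.0456) and GCLC (edgeR adjusted p = 0.00333). The GC offset called 1 in A-431, 0 for U-251MG and 0 for U-2 OS (2 and 3 members at an unadjusted p under 0.05 in the last 2 lines). Libraries of flow cell A alone called 0 for U-251MG (6 at an unadjusted p under 0.05) and all 4 labelled cytoplasmic libraries called 0 for U-2 OS (8 at an unadjusted p under 0.05). No share of all genes is given at these other settings, so the counts do not set the members apart from other genes. Between lines, limma on RPKM plus 1 and plus 0.1 called 1 member (PRDX2) for A-431 over U-2 OS in cytoplasmic RNA with either, against 4. In cytoplasmic RNA both also lost TXNRD1 (log2 ratio 0.93) and SLC7A11 (limma adjusted p = 0.00169 and 0.00175) for U-251MG over U-2 OS. Both lost HMOX1 for A-431 over U-251MG there (limma adjusted p = 0.00711 and 0.00729). In total RNA both lost NQO1 for A-431 over U-2 OS (log2 ratio 0.82).

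Directions turned only for members that had not been called. The PRDX1 fraction ratio of U-251MG over U-2 OS was 0.0077 with RLE scaling and 0.00987 with DESeq2, and that of A-431 over U-2 OS was -0.0251 with all 4 labelled libraries. With the GC offset, NQO1 had -0.10 in A-431, while U-251MG had -0.15 for NQO1 and -0.0331 for TXNRD1. GCLC for A-431 over U-2 OS in cytoplasmic RNA had -0.14 and -0.15 with limma.

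With each library left out in turn, the count between fractions ranged from 1 to 5 in A-431, 0 to 3 for U-251MG and 0 to 4 for U-2 OS, and for A-431 over U-2 OS in total RNA from 2 to 4. NQO1 in U-251MG ranged from -0.0396 to 0.0876 between fractions, and HMOX1 for U-251MG over U-2 OS in total RNA from -0.17 to 0.0369. Fraction ratios of A-431 over U-2 OS ranged from -0.0906 to 0.01005 for NQO1. Those of U-251MG over U-2 OS ranged from -0.10 to 0.0287 for NQO1, -0.0544 to 0.21 for TXNRD1, -0.0241 to 0.02001 for PRDX1 and -0.0766 to 0.40 for SLC7A11. Those of A-431 over U-251MG ranged from -0.0704 to 0.0604 for NQO1, -0.0166 to 0.12 for GCLC, -0.10 to 0.15 for TXNRD1 and -0.0313 to 0.46 for SLC7A11.

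For pairing, the group mean of each gene was taken from its log2 CPM, and only the remaining deviations were correlated across genes. Between same-numbered total and cytoplasmic libraries these deviations correlated at 0.018 to 0.214 in A-431, -0.375 to 0.30 for U-251MG and 0.048 to 0.141 for U-2 OS. They are not correlations of expression levels. No differently numbered libraries were set beside them, so whether the replicate numbers pair the libraries was not tested. With the study's numbers as a replicate block, 6 members were called in A-431 (TXNRD1 in addition), 2 for U-251MG and 4 for U-2 OS (GCLM in addition).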

Other observations

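Among the other NRF2 targets and glutathione enzymes, a pair of genes chosen after their values were seen was nearly absent from 1 line each. ME1, the cytosolic malic enzyme that makes NADPH, had 82.7 ± 5.69 CPM in A-431 total RNA, 0.0265 ± 0.0343 CPM in U-251MG and 36.6 ± 2.41 CPM in U-2 OS (SD, n = 4 each). MGST1, a membrane-bound glutathione transferase, had 0.123 CPM in A-431 total RNA, 267 ± 12.95 CPM in U-251MG and 9.63 ± 1.36 CPM in U-2 OS.

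U-2 OS cytoplasmic library 13 entered only the alternative with all labelled libraries. It lay below the 3 other cytoplasmic libraries of the line in 7 of the 9 genes, among them PRDX1 (376 CPM), TXNRD1 (283 CPM) and GCLM (39.9 CPM). For PRDX2 the margin was small (78.8 CPM, against 79.3 CPM in library 16). The share of all genes below the other libraries is not given. Library 13 had 71.8 CPM of MALAT1 and 1047 CPM of NEAT1, above the other 3. Its values of GSTP1 (401 CPM) and HMOX1 (21.8 CPM) lay within their range.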
